A study of Drosophila melanogaster with 18 samples.

Results

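The genes described here are the Jonah and trypsin digestive proteases of Drosophila melanogaster. They are the 27 of the 17825 genes in the count table whose FlyBase symbol begins with Jon and a digit (16 Jonah genes) or ends in Try (11 trypsin genes), a rule that rests on gene names alone. They were followed through 9 conditions of the w1118 strain, a wild-type isogenic strain, with 2 RNA-seq libraries in each. The whole-animal conditions were embryos aged 18 h, wandering L3 larvae and adults aged 24 h by the labels, for which no sex is given. The adult parts were male and female bodies (the abdomen with the thorax, which holds the midgut), male and female heads, testes and ovaries, all given as 24 h old. A passage of the study's text, which lists the whole adults with the embryos and larvae, gives these adults a younger age. No gut was dissected, so the larval and the adult gut were each read as part of a whole animal or a body. The labels do not say how many animals went into a library or whether 2 libraries of a condition came from separate animals. Every p-value below therefore rests on the spread between libraries of the same condition, which may be technical. That spread was estimated jointly over all conditions of a fit, with information shared among genes.

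Digestive serine proteases are made by the enterocytes of the midgut as inactive precursors, secreted into the gut lumen and activated there by cleavage. Trypsins cut proteins after lysine or arginine, and the Jonah genes encode chymotrypsin-like enzymes of the same serine endopeptidase family, known for their expression in the gut. Drosophila replaces its midgut during metamorphosis, when the larval epithelium is shed and adult midgut precursors build a new one, so larval and adult enzymes are made by different cells.

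In the coordinates of dmel r6.15 the genes lay in 8 groups, each separated from the next by more than 30000 bp. All 11 trypsins stood in 1 stretch of 20698 bp (2R:11336840-11357537). The Jonah genes were spread over 7 places, namely Jon25Biii, Jon25Bii and Jon25Bi (2L:4949941-4955144), Jon44E (2R:8691448-8692844), Jon65Aiv, Jon65Aiii, Jon65Aii and Jon65Ai (3L:6039155-6054443), Jon66Ci and Jon66Cii (3L:8391540-8393649), Jon74E (3L:17548077-17549127), Jon99Ciii, Jon99Cii and Jon99Ci (3R:29922216-29926189) and Jon99Fii and Jon99Fi (3R:30487016-30489895). The genes are short, with spans of 810 to 1397 bp, and 22 of the 27 consist of a single exon. gammaTry and deltaTry have the same span of 810 bp and the same coding length of 759 bp and are near-identical copies, as are the neighbouring CG30025 and CG30031, so the way the reads were divided among them is uncertain. Jon44E overlaps CG8586 by 49 bp and deltaTry overlaps CG13202 by 15 bp, on the opposite strand in both cases.

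Libraries held 37198249 to 87676051 counts. The stage libraries were made of 100 bp reads without strand information and the libraries of adult parts of 150 bp strand-specific reads, so the stages and the parts were fitted apart. Levels are given as CPM, counts per 1000000 of the library total, and fold changes are on the log2 scale from the edgeR fit. A gene was called when its Benjamini-Hochberg adjusted p, over all genes tested, was under 0.05 and its log2 fold change was at least 1 either way. The 4 eye and head markers sat where the labels put them, at 28320 to 40864 summed CPM in heads against 52.4 to 183 in bodies and gonads. Not every marker did. The midgut gene mex1 had 50.2 and 38.8 CPM in testes beside 44.0 and 36.9 CPM in male bodies, although 5 of 7 tested midgut markers were called higher in male bodies. Flight muscle markers summed to 428 to 3305 CPM in bodies, which hold the thorax, against 17498 and 16830 CPM in whole adults. Testis libraries also held 3005 and 2670 CPM of Acp26Aa, a seminal protein of the male accessory gland. All 27 proteases passed the low-count filter in both fits, in which 12335 genes (stages) and 12597 genes (parts) were tested.

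The proteases differed between conditions by more than 3 orders of magnitude. Together they took 5.19% and 1.79% of all counts in the larval libraries, 0.175% and 0.276% in the embryos, and 0.0654% in each of the whole adult libraries. In adult bodies their share was 1.27% and 2.65% in males and 1.04% and 1.59% in females. Heads and gonads held the least, with 0.0037% to 0.0086% in heads, 0.0208% and 0.0071% in testes and 0.0037% and 0.0016% in ovaries. The Jonah genes made up 92.8% and 91.8% of the protease counts in larvae and 79.4% to 84.5% in bodies, but 40.3% and 44.5% in whole adults, where the trypsins held the larger share.

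**Figure D1:**
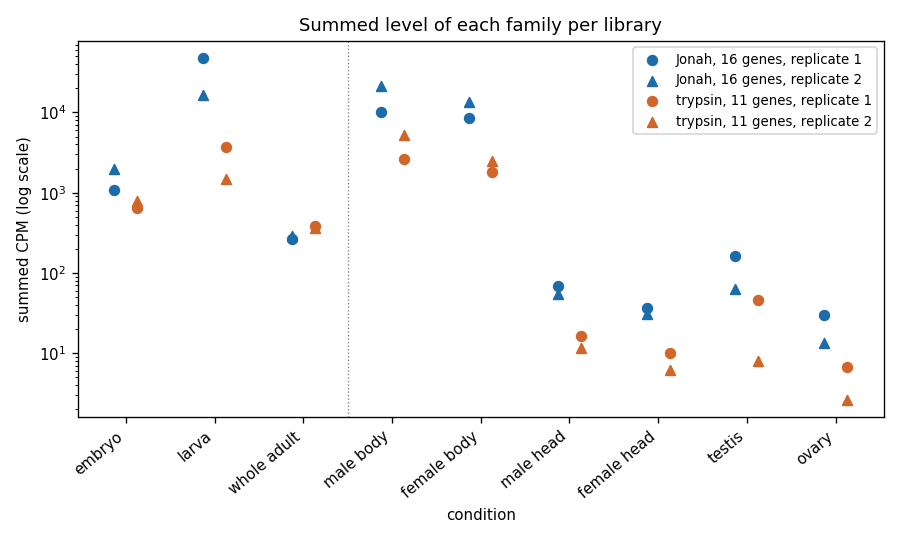
Summed CPM (log scale) of the 16 Jonah genes (blue) and the 11 trypsin genes (orange) in each library, with circles for replicate 1 and triangles for replicate 2, and stages left of the dotted line. Larvae and bodies stand highest, and whole adults are the condition in which the trypsin sum (390 and 363 CPM) exceeds the Jonah sum (264 and 291 CPM).

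In most conditions replicate libraries differed more in protease level than in other genes. Female heads were close to other genes, with 6.67% of 15 proteases over 2-fold apart against 5.52% of other genes. In larvae 25 of the 27 genes were higher in replicate 1, and the median ratio of replicate 2 to replicate 1 was 0.391, against 0.967 over 11038 other genes. In embryos and in both kinds of body it was replicate 2 that was higher, in 24 genes (embryos), 25 of 26 genes (male bodies) and 24 of 26 genes (female bodies) with enough counts for a ratio. Testis replicate 1 held more than testis replicate 2 for 15 of 21 genes. The whole adult libraries had equal sums, with a median ratio of 0.962, but single genes differed between them. Of 23 genes with enough counts 10 (43.5%) were over 2-fold apart, against 4.80% of other genes, with ratios from 0.314 (lambdaTry) to 3.83 (epsilonTry).

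**Figure D2:**
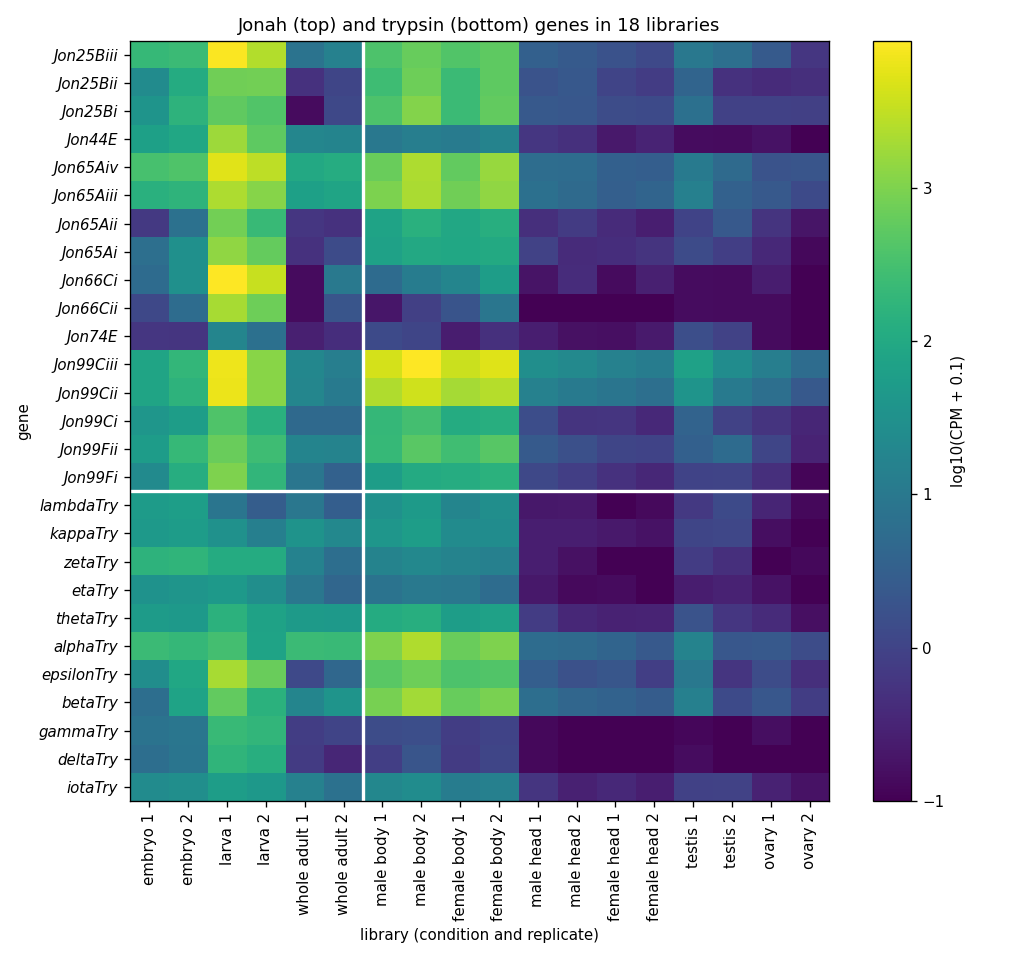
Level of each gene in each of the 18 libraries as log10(CPM + 0.1), with Jonah genes above the white horizontal line, trypsins below it, and stages left of the vertical line. The larval columns are bright for most Jonah genes, the body columns for the Jon99C and Jon65A genes, alphaTry and betaTry, and the head and gonad columns are dark throughout.

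The first comparison set whole adults against L3 larvae. Of the 27 proteases 24 fell from larvae to whole adults and 0 rose, against 17.8% of all tested genes called lower and 23.1% called higher, and the numbers were the same at an unadjusted p under 0.05 and with DESeq2's Wald test. All 16 Jonah genes fell, by 4.77 to 10.66 on the log2 scale, and 8 of the 11 trypsins did. The median log2 fold change was -6.20 over the 27 genes and -0.02 over all genes tested. In whole animals, fewer gut cells and less RNA per gut cell cannot be told apart.

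The Jon66C pair was among the genes that fell furthest. Jon66Ci stood at 9072 and 3544 CPM in larvae and at 0.0420 and 10.1 CPM in whole adults. Jon66Cii stood at 2009 and 724 CPM in larvae and at 0.0420 and 1.97 CPM in whole adults. In both genes the larval and the whole adult libraries did not overlap, and the whole adult libraries differed widely from each other, with 2 counts of either gene in replicate 1 against 460 (Jon66Ci) and 90 (Jon66Cii) in replicate 2. The log2 fold changes were -10.55 (SE 2.27, adjusted p = 0.00876) for Jon66Ci and -10.66 (SE 1.72, adjusted p = 0.00288) for Jon66Cii, within their errors of those of Jon65Ai, Jon25Bii and Jon65Aii given next. They rest on the whole adult library used, at -9.40 and -9.54 without replicate 1 and at -17.27 and -15.07 without replicate 2.

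The Jon25B genes fell almost as far. Jon25Biii, with the second level per length in larvae, had 8549 and 2499 CPM in larvae and 7.67 and 14.8 CPM in whole adults. Jon25Bii had 765 and 815 CPM against 0.399 and 1.01 CPM, a log2 fold change of -10.37 (SE 0.99, adjusted p = 3.96e-04). Jon25Bi had 570 and 405 CPM against 0.0420 and 1.09 CPM. The larval and the whole adult libraries did not overlap in any of the 3 genes, whose log2 fold changes ran from -10.37 to -9.16.

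The 4 Jon65A genes fell by unequal amounts although they stand side by side. Jon65Ai went from 1396 and 625 CPM in larvae to 0.420 and 1.27 CPM in whole adults (log2 fold change -10.45, SE 1.149, adjusted p = 6.77e-04). Jon65Aii went from 805 and 221 CPM to 0.504 and 0.416 CPM (log2 fold change -10.32, SE 1.52, adjusted p = 0.00208). Both stayed under 2 CPM in whole adults, while their neighbours kept a sizeable level. Jon65Aiv had 5366 and 2885 CPM in larvae and still 100.1 and 118 CPM in whole adults, and Jon65Aiii had 2225 and 1170 CPM in larvae and 66.8 and 77.0 CPM in whole adults. Their log2 fold changes, -5.46 and -4.77, were among the smallest of the Jonah genes.

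The Jon99 genes, Jon44E and Jon74E lay between these extremes. Jon99Ciii had 6941 and 1193 CPM in larvae against 20.0 and 13.1 CPM in whole adults, and Jon99Cii had 6614 and 1208 CPM against 18.5 and 10.3 CPM. Jon99Ci had 401 and 142 CPM against 4.79 and 4.93 CPM. In each Jon99C gene larval replicate 1 was well above larval replicate 2, which was above both whole adult libraries. Jon99Fii had 658 and 260 CPM against 17.2 and 16.7 CPM, and Jon99Fi had 993 and 180 CPM against 8.83 and 3.37 CPM. Jon44E had 1725 and 543 CPM against 18.4 and 17.1 CPM, and Jon74E, the lowest Jonah gene, had 17.7 and 6.76 CPM against 0.168 and 0.350 CPM. Larvae and whole adults were separate in every one of these genes, with log2 fold changes between -8.27 and -4.97.

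The trypsins split into genes that fell with the Jonah genes and genes that were not called. epsilonTry fell from 2057 and 665 CPM in larvae to 1.16 and 4.42 CPM in whole adults, a log2 fold change of -9.17. The copies gammaTry (216 and 182 CPM against 0.694 and 0.920 CPM) and deltaTry (176 and 128 CPM against 0.630 and 0.241 CPM) had log2 fold changes of -8.16 and -8.63. For these 3 trypsins the whole adult libraries reached no more than a few CPM. betaTry had 589 and 148 CPM against 18.0 and 36.7 CPM, and zetaTry had 114.5 and 114.7 CPM in larvae against 16 and 6.11 CPM. thetaTry (151 and 73.5 CPM against 49.4 and 47.6 CPM), iotaTry (58.7 and 43.6 CPM against 15.0 and 6.88 CPM) and etaTry (46.9 and 27.6 CPM against 9.31 and 4.20 CPM) fell by 1.42 to 2.65 on the log2 scale.

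alphaTry, kappaTry and lambdaTry were not called. alphaTry had 295 and 76.7 CPM in larvae and 236 and 233 CPM in whole adults (log2 fold change 0.13, SE 0.54). kappaTry had 31.6 and 13.8 CPM in larvae and 34.6 and 20.8 CPM in whole adults (0.10, SE 0.42), and lambdaTry had 8.36 and 2.81 CPM against 9.33 and 2.93 CPM (-0.04, SE 0.65). In these genes the larval and the whole adult libraries overlapped. Per kb of gene span alphaTry was the highest protease of whole adults, at 272 ± 2.94 CPM per kb (SD, n = 2), ahead of Jon65Aiv at 111 ± 12.6, whereas Jon66Ci led in larvae at 7527 ± 4665, ahead of Jon25Biii at 6679 ± 5172. The larval libraries differed widely in both leaders, but within each of them Jon66Ci was the higher (10826 against 10337 and 4229 against 3022 CPM per kb).

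**Figure D3:**
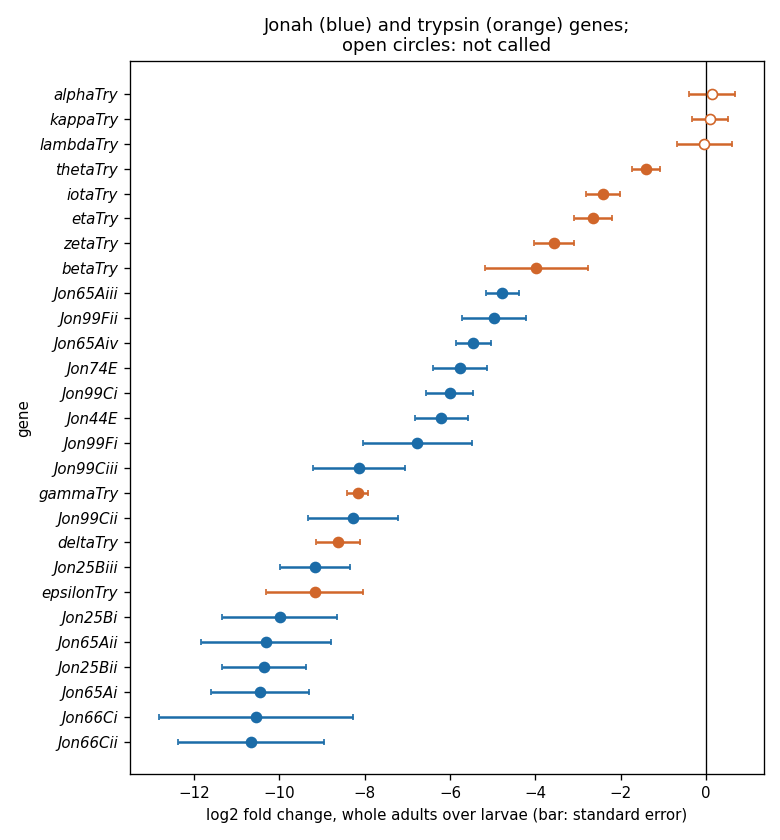
Log2 fold change of each gene in whole adults over larvae (2 libraries each, edgeR), with bars for 1 standard error, Jonah genes in blue and trypsins in orange. The filled points are the 24 genes called lower, from -1.42 (thetaTry) to -10.66 (Jon66Cii), and the 3 open points at 0 are alphaTry, kappaTry and lambdaTry.

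Without either whole adult library 22 genes were called, because betaTry and thetaTry no longer passed. Without larval replicate 1 betaTry and thetaTry were also lost and alphaTry was called higher in whole adults, leaving 22 lower and 1 higher. The log2 fold changes of Jon65Ai, Jon25Bii and Jon65Aii ranged from -11.37 (Jon65Ai without whole adult replicate 2) to -9.13 (Jon65Aii without larval replicate 1) when 1 library was left out. Markers of the midgut moved in the same direction by less. Of 7 tested midgut markers 5 were called lower in whole adults with a median log2 fold change of -1.52, their sum went from 1419 and 880.0 CPM in larvae to 268 and 290 CPM (252.5 and 211 to 118 and 109.9 CPM without Amy-p, an amylase), and GATAe, a midgut transcription factor, from 25.3 and 21.4 CPM to 20.3 and 16 CPM. The midgut marker mag was listed at 0 in every library, which need not mean that its transcript was absent. Both tested flight muscle markers rose, from 0.397 and 0.086 summed CPM in larvae to 17498 and 16830 in whole adults, and the part of either change in the protease result was not tested.

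The second comparison set L3 larvae against embryos aged 18 h. Of the 27 proteases 21 rose from embryos to larvae (15 Jonah genes and 6 trypsins), where 31.7% of all tested genes were called higher, and 1 fell, where 19.3% were called lower. The median log2 fold change was 3.70 over the 27 genes, 4.40 over the Jonah genes, 1.147 over the trypsins and 0.31 over all genes tested.

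Embryos already held many of these transcripts, and they differed in which genes led. Jon65Aiv, the highest protease of embryos per length at 366 ± 50.2 CPM per kb (SD, n = 2), had 324 and 394 CPM, and Jon25Biii had 207 and 237 CPM. alphaTry had 238 and 198 CPM and zetaTry 158 and 177 CPM, close to or above their larval values. In these genes the embryo libraries differed by less than 1.5-fold. The Jon66C genes and Jon65Aii stood near the bottom of the embryonic order, with 5.21 and 31.4 CPM (Jon66Ci), 1.09 and 5.69 CPM (Jon66Cii) and 0.559 and 7.08 CPM (Jon65Aii), and there replicate 2 exceeded replicate 1 several-fold.

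The largest rises were in those low genes. Jon66Cii rose by 8.84 on the log2 scale (SE 1.59, adjusted p = 0.00283), Jon66Ci by 8.62 (SE 2.1, adjusted p = 0.0106) and Jon65Aii by 7.26 (SE 1.31, adjusted p = 0.00290). Jon65Ai, at 6.31 and 30.9 CPM in embryos, rose by 5.96 (SE 0.94, adjusted p = 0.00157), and Jon99Cii, at 79.1 and 162 CPM, rose by 5.20 (SE 0.92, adjusted p = 0.00262). Among the trypsins gammaTry, epsilonTry and deltaTry rose by 4.79, 4.73 and 4.60 from 5.97 to 90 CPM in embryos, betaTry by 3.40 from 5.97 and 73.9 CPM, thetaTry by 1.37 from 52.9 and 45.1 CPM and iotaTry by 1.147 from 24.6 and 27.8 CPM.

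The remaining Jonah genes were present in embryos at intermediate levels. Jon65Aiii had 142 and 166 CPM and Jon99Ciii 79.7 and 188 CPM. Jon44E had 67.1 and 90.6 CPM, Jon99Ci 40.2 and 58.1 CPM and Jon99Fii 54.4 and 208 CPM. Jon25Bii had 24.6 and 114 CPM and Jon99Fi 23.1 and 125 CPM, while Jon74E stood at 0.513 and 0.492 CPM. All of these rose to larvae, by 2.0 (Jon99Fii) to 5.10 (Jon99Ciii).

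lambdaTry was the gene that fell, from 52.2 and 59.9 CPM in embryos to 8.36 and 2.81 CPM in larvae (log2 fold change -3.15, SE 0.69, adjusted p = 0.00673). Its neighbour kappaTry, at 47.2 and 56.0 CPM in embryos, had a log2 fold change of -1.01 (SE 0.42, adjusted p = 0.0760), and it was called lower with DESeq2's size factors, with DESeq2's Wald test and with only the groups compared. zetaTry (-0.37), alphaTry (-0.06) and etaTry (0.22, from 33.9 and 38.5 CPM) were not called, and neither was Jon25Bi, at 37.4 and 158 CPM in embryos (2.51, SE 0.94, adjusted p = 0.0523). Mean levels per length correlated more closely between embryos and whole adults than between embryos and larvae. The Pearson correlations across the 27 genes were 0.72 and 0.35 on the scale of log2(CPM per kb + 0.1), and that between larvae and whole adults was 0.12. These are descriptions across genes, which are not independent replicates.

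Without embryo replicate 1 the number called was 17, with Jon66Ci (7.85, adjusted p = 0.0792), Jon99Fi, Jon99Fii, betaTry and iotaTry lost. Without embryo replicate 2 it was 20, with iotaTry and thetaTry lost. Without larval replicate 1 it was 19, as Jon99Fi, Jon99Fii, betaTry, iotaTry and thetaTry were lost and alphaTry and kappaTry were called lower beside lambdaTry. Without larval replicate 2 it was 23, with Jon25Bi called higher. The largest rises moved as well, to 10.42 (Jon66Cii), 10.38 (Jon66Ci), 9.97 (Jon65Aii) and 7.46 (Jon65Ai) without embryo replicate 2, and to 3.52 (Jon99Cii) without larval replicate 1.

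In adult parts the proteases were read against bodies. All 27 were higher in male bodies than in male heads, where 30.6% of all tested genes were called higher, and 26 were higher in female bodies than in female heads, where 25.6% were. The median log2 fold change was 7.46 in males and 8.26 in females (8.12 with genes at 0 in heads set to their bound). Jon74E was the gene not called in females (log2 fold change 1.38, SE 0.88, adjusted p = 0.232).

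Bodies were led by the Jon99C pair. Jon99Ciii had 4467 and 9122 CPM in male bodies, 3689 and 5328 CPM in female bodies, and 11.8 to 28.4 CPM in the 4 head libraries. Jon99Cii had 2349 and 4083 CPM in male bodies, 1930 and 2509 CPM in female bodies and 6.5 to 14.7 CPM in heads. Per kb of gene span Jon99Ciii stood at 5479 ± 2654 and Jon99Cii at 3731 ± 1423 in male bodies (SD, n = 2). The same genes led in female bodies at 3636 ± 935 and 2575 ± 475. Within each body library Jon99Ciii was the higher of the pair. It had 3602 against 2725 and 7356 against 4737 CPM per kb in males, and 2975 against 2239 and 4297 against 2911 in females. Jon99Ciii alone took 33.5% to 35.3% of the protease counts in bodies and 31.9% to 35.8% in heads, testes and ovaries, against 13.4% and 6.67% in larvae.

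alphaTry and betaTry were the leading trypsins of bodies. alphaTry had 1009 and 2310 CPM in male bodies and 677 and 988 CPM in female bodies, and betaTry had 889 and 1849 CPM and 631 and 902 CPM. epsilonTry followed with 484 and 721 CPM in males and 378 and 415 CPM in females. These 3 trypsins stood at 0.730 to 6.10 CPM in heads. Among the Jonah genes Jon65Aiii (944 and 2146 CPM in male bodies, 783 and 1354 CPM in female bodies), Jon65Aiv (674 and 2277 CPM, 588 and 1565 CPM) and Jon25Bi (379 and 1101 CPM, 241 and 583 CPM) were high in all 4 body libraries, each higher in replicate 2 of either sex.

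The other Jonah genes of bodies covered a wide range. Jon25Biii had 368 and 651 CPM in male bodies and 413 and 537 CPM in female bodies, Jon25Bii had 265 and 734 CPM and 246 and 527 CPM, and Jon99Fii had 211 and 488 CPM and 272 and 474 CPM. Jon99Ci (205 and 305 CPM, 114.8 and 127 CPM), Jon65Aii (76.0 and 143 CPM, 95.5 and 128 CPM), Jon65Ai (69.3 and 96.3 CPM, 90.2 and 102 CPM) and Jon99Fi (58.5 and 107 CPM, 117 and 147 CPM) were lower. At the bottom were Jon44E with 9.63 to 16.1 CPM, Jon66Ci with 5.39 to 58.5 CPM, Jon66Cii with 0.102 to 8.70 CPM and Jon74E with 0.150 to 1.20 CPM over the 4 body libraries. Of the remaining trypsins thetaTry had 56.9 to 129 CPM, kappaTry 24.5 to 58.1 CPM, lambdaTry 17.6 to 51.3 CPM, iotaTry 12 to 26.1 CPM, zetaTry 14.3 to 20.7 CPM and etaTry 5.63 to 10 CPM, while gammaTry and deltaTry stayed between 0.637 and 1.98 CPM.

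The largest fold changes over male heads were those of lambdaTry (8.22, SE 0.93, adjusted p = 1.53e-04), Jon25Bi (8.12, SE 1.17, adjusted p = 5.20e-04), alphaTry (8.03, SE 1.12, adjusted p = 4.43e-04), kappaTry (7.92, SE 0.67, adjusted p = 3.81e-05) and Jon99Ci (7.86, SE 0.97, adjusted p = 2.42e-04), and lay between 6.75 (Jon25Bi without male body replicate 2) and 9.27 (Jon25Bi without male body replicate 1) when 1 library was left out. Those over female heads were led by genes with few or no head counts. zetaTry had 0 counts in both female heads and was at least 538-fold higher in female bodies, with the bound taken at 3 counts over the group, and Jon66Cii was at least 182-fold higher by the same bound. lambdaTry had 2 counts in female heads, a ratio of 1190 with a counting interval of 329 to 9829. The fitted values of these genes, which depend on the prior count, were 12.63 (SE 1.09, adjusted p = 4.28e-05), 11.08 (SE 2.1, adjusted p = 0.00401) and 9.95 (SE 1.08, adjusted p = 7.84e-05). Jon65Aii (8.78, SE 0.94, adjusted p = 7.51e-05) and Jon25Bii (8.77, SE 1.21, adjusted p = 3.31e-04) came next with 0.160 to 0.959 CPM in female heads. Without female head replicate 2 lambdaTry was at 13.19, and without female body replicate 2 Jon66Cii was at 9.16 and Jon25Bii at 7.86. gammaTry and deltaTry, also at 0 in female heads, were at least 27.8-fold and 28.5-fold higher in bodies, and Jon66Cii, at 0 in male heads, at least 15.5-fold higher in male bodies, where its call was lost without male body replicate 2 or without either male head library.

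Gonads were low in the same genes. Of the 27 proteases 25 were higher in male bodies than in testes, where 24.0% of all tested genes were called higher, and 27 were higher in female bodies than in ovaries, where 19.6% were. The median log2 fold change was 6.70 over testes and 8.70 over ovaries. Jon74E was the exception with a level in testes close to that in male bodies, at 1.44 and 0.853 CPM against 1.20 and 0.979 CPM (log2 fold change -0.03, SE 0.73), and Jon66Cii, with 2 counts in each testis library, was not called either (3.35, SE 1.46, adjusted p = 0.133).

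Over testes the largest changes were those of Jon44E (8.0, SE 0.89, adjusted p = 2.29e-04), Jon25Bii (7.90, SE 1.16, adjusted p = 9.24e-04), Jon25Bi (7.68, SE 1.147, adjusted p = 9.98e-04), Jon65Aiv (7.63, SE 0.86, adjusted p = 2.37e-04) and Jon66Ci (7.60, SE 1.35, adjusted p = 0.00256). Their order changed with the libraries used, with Jon25Bii at 10.43 and Jon25Bi at 10.04 without testis replicate 1 (Jon44E at 8.19), and at 6.56 and 6.29 without male body replicate 2 (Jon44E at 7.34). Over ovaries they were Jon25Bii (10.02, SE 1.28, adjusted p = 4.37e-04), kappaTry (9.69, SE 0.77, adjusted p = 6.74e-05), zetaTry (9.58, SE 0.85, adjusted p = 1.56e-04), Jon99Fi (9.28, SE 1.08, adjusted p = 2.78e-04) and Jon65Ai (9.15, SE 0.97, adjusted p = 1.90e-04). kappaTry and zetaTry rest on 3 and 2 counts in the ovaries, with ratios of 1015 (counting interval 347 to 4925) and 930.1 (257 to 7686). Without ovary replicate 1 kappaTry was at 13.35, Jon99Fi at 12.85 and Jon65Ai at 11.49, without ovary replicate 2 zetaTry was at 12.32, and without female body replicate 2 Jon25Bii was at 9.0. deltaTry had 0 counts in both ovaries and was at least 32.9-fold higher in female bodies. Calls lost when 1 library was left out concerned only genes with few counts, namely deltaTry, gammaTry, Jon74E and Jon66Cii, and left 23 to 27 genes called in each of the comparisons of bodies with heads and gonads.

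Mean levels across the genes in heads and gonads correlated closely with those in bodies, but single libraries could depart. In testis replicate 2 Jon25Bii (0.406 CPM) and epsilonTry (0.487 CPM) lay below lambdaTry (1.20 CPM). In male body replicate 2 they had 734, 721 and 51.3 CPM. On the scale of log2(CPM per kb + 0.1) the correlation across the 27 genes was 0.95 between male bodies and male heads, 0.90 between female bodies and female heads, 0.92 between male bodies and testes and 0.90 between female bodies and ovaries, as descriptions across genes. For genes with at least 1000 counts in the body library, the level in heads was a median of 0.647% (replicate 1) and 0.257% (replicate 2) of that in the male body of the same number, and 0.415% and 0.211% in females. Testes had 1.59% and 0.337%, and ovaries 0.342% and 0.0858%. Replicate 1 was higher in each pair. ninaE, the opsin of the outer photoreceptors, stood in bodies and gonads at 0.0629% to 0.257% of its head level, also higher in replicate 1 of each pair. Whether RNA of one part in the libraries of another has a part in the head and gonad values was not tested.

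**Figure D4:**
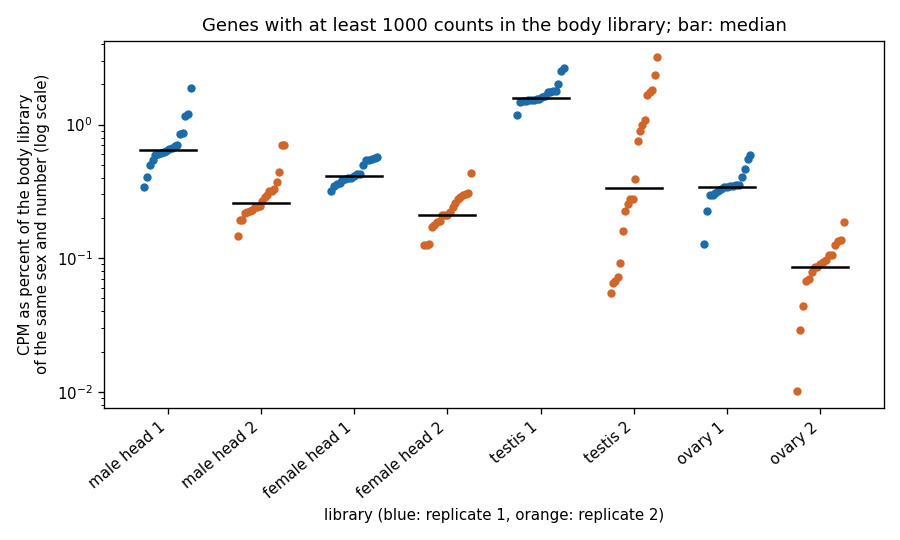
CPM of each gene in heads and gonads as a percent (log scale) of its CPM in the body library of the same sex and replicate number, for genes with at least 1000 counts in that body library, with replicate 1 in blue, replicate 2 in orange and black bars for medians. The medians run from 0.0858% (ovary 2) to 1.59% (testis 1) and are higher in replicate 1 of each pair, and testis 2 has the widest spread, from 0.0553% to 3.19%.

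Between female and male bodies 1 of the 27 proteases was called higher in females, where 24.4% of all tested genes were, and 0 lower, where 27.7% were, while 3 genes (Jon66Cii, Jon66Ci and Jon74E) had an unadjusted p under 0.05. It was Jon66Cii, with 1.84 and 8.70 CPM in female bodies and 0.102 and 0.763 CPM in male bodies (log2 fold change 3.73, SE 1.18, adjusted p = 0.0306). The sexes did not overlap, but the male value rests on 4 and 39 counts. Its neighbour Jon66Ci had 18.0 and 58.5 CPM in females and 5.39 and 11.8 CPM in males (2.34, SE 0.94, adjusted p = 0.0583). Jon74E was at the other end, with 0.150 and 0.391 CPM in females and 1.20 and 0.979 CPM in males (-1.79, SE 0.78, adjusted p = 0.0759). All 11 trypsins had log2 fold changes below 0, from -0.81 (alphaTry, SE 0.83) to -0.07 (etaTry, SE 0.73), and none was called. The median over all genes tested was also below 0, at -0.18, and the 11 genes, read in the same libraries, are not independent. With DESeq2's size factors, which shift every gene by -0.51 against TMM in this comparison, 3 genes were called, namely Jon66Cii (3.27), kappaTry (-1.26) and Jon74E (-2.28). With the replicate number as a block Jon66Ci (2.26) was called as well as Jon66Cii (3.79). DESeq2's Wald test turned the result to 0 higher and 2 lower, kappaTry (-1.26) and Jon74E (-2.29), and did not call Jon66Cii (3.29, adjusted p = 0.0673). Nor was Jon66Cii called without female body replicate 2 (1.47, adjusted p = 0.349), where Jon74E was called lower (-3.37), or without male body replicate 1 (2.05, adjusted p = 0.217), where kappaTry (-1.90) and Jon65Aiv (-1.80) were. Without male body replicate 2 Jon66Cii was at 6.03, and without female body replicate 1 it was at 4.58 and Jon66Ci was called higher (3.07). Mean levels across the genes were alike in both sexes, with a correlation across the 27 genes of 0.96.

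Larvae and adult bodies were set side by side as levels, since their libraries were made by different protocols and no test was run between them. Larvae and bodies of both sexes did not overlap in 18 genes. Larvae were higher in 15 of them (10 Jonah genes and 5 trypsins), against 16.5% of all genes compared, and lower in 3 (lambdaTry, betaTry and alphaTry), against 20.3%. The contrast was sharpest for Jon66Ci, at 3544 CPM in the lower larval library and 58.5 CPM in the highest body library, and for Jon66Cii, Jon44E, gammaTry and deltaTry, which were above 100 CPM in both larval libraries and below 20 CPM in every body library. Jon99Ciii, Jon99Cii, Jon99Ci, Jon99Fii, Jon65Aiii, Jon25Bi, epsilonTry, thetaTry and kappaTry overlapped. The correlation of mean levels across the genes between larvae and bodies was 0.43 for males and 0.60 for females.

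Whole adults and bodies differed in many of these genes. The labels and the study's methods give both the same age, while a passage of its results text gives the whole adults a younger one. Bodies of both sexes were above both whole adult libraries in 18 genes (12 Jonah genes and 6 trypsins), against 16.7% of all genes compared, and below them in 1, Jon44E (17.1 and 18.4 CPM in whole adults, 9.63 to 16.1 CPM in bodies), against 20.6%. Jon44E overlaps CG8586 on the opposite strand, and the whole adult libraries carry no strand information. CG8586 had 5577 and 4537 counts in whole adults and 1289 to 3045 in bodies, and its part in the Jon44E values was not tested. Jon65Aii had a mean level in bodies 219 times that of whole adult replicate 1 and 266 times that of replicate 2, and Jon99Ciii 283 and 433 times. Jon25Bii had 1109 and 440 times, and Jon25Bi, with 2 counts in whole adult replicate 1, 526 times that of replicate 2. For alphaTry the ratios were 5.28 and 5.36, for lambdaTry 3.44 and 10.9 and for thetaTry 1.87 and 1.94. Library protocol, the presence of the head, and by that passage of the results text age, change with the group here. The whole adults also have no sex given, while bodies were separated by sex. The effects of these differences cannot be told apart.

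**Figure D5:**
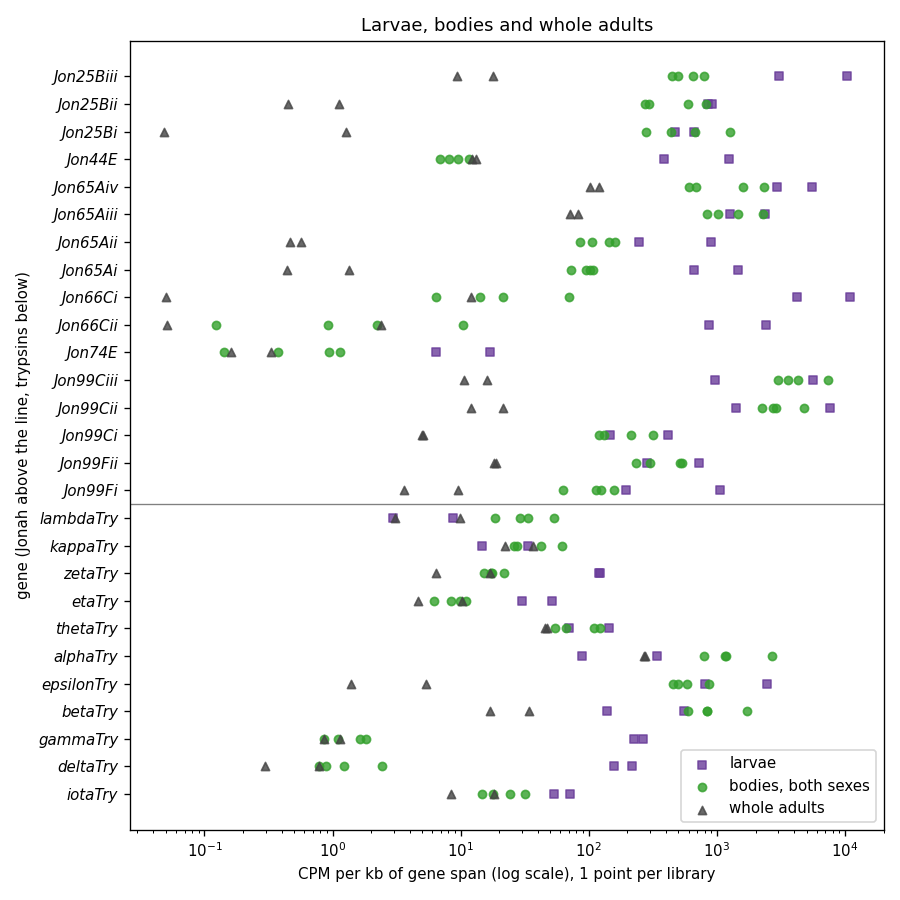
CPM per kb of gene span (log scale) in each library of larvae (squares), bodies of both sexes (circles) and whole adults (triangles), 1 point per library, Jonah genes above the line and trypsins below. Whole adults lie left of the bodies in 18 genes, and larvae lie right of the bodies in 15, among them both Jon66C genes, Jon44E, gammaTry and deltaTry.

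Other serine proteases, carbohydrases and lysozymes were read from lists, and the serine protease list was not limited to genes of the gut. Its member Sems stood at 37.2 and 33.9 CPM in testes and at 0.225 and 0.0391 CPM in female bodies. Ser12 stood at 46.6 and 30.0 CPM in female bodies and at 0.153 and 0 CPM in male bodies. Of 23 tested serine protease genes outside the Jonah and trypsin names, 16 fell and 4 rose from larvae to whole adults, beside 17.8% and 23.1% of all tested genes, with the deepest fall in CG30031 (-9.24, SE 0.69), a neighbour of gammaTry and deltaTry, from 149 and 101 CPM to 0.399 and 0.0657 CPM, and the largest rise in CG6592 (6.95, SE 0.51), from 0.119 and 0.0429 CPM to 12 and 11.9 CPM. The median of that list was -2.84. Of 11 tested carbohydrases 6 fell and 5 rose beside the same shares, led by Amyrel (-8.15, SE 0.90), an amylase-related gene, at 98.0 and 24.2 CPM in larvae and 0.105 and 0.394 CPM in whole adults, and Mal-A7 (5.60, SE 1.08), a maltase, at 5.16 and 0.279 CPM and 150 and 155 CPM. LysX was the tested lysozyme and fell (-3.23, SE 0.99), while the other 6 lysozymes were listed at 0 in every library. Acp36DE and Acp62F of the accessory gland list were also at 0 throughout, although Acp26Aa had 3005 and 2670 CPM in testes. Whether a row at 0 in every library means an absent transcript or reads left uncounted was not tested. Of the 30 listed serine proteases in the count table, 23 were tested. From embryos to larvae 10 of the 23 serine proteases rose and 3 fell, and 5 of the 11 carbohydrases rose and 3 fell, beside 31.7% and 19.3% of all tested genes. In male bodies over male heads 19 of 24 tested serine proteases and 10 of 11 carbohydrases were called higher, beside 30.6% of all tested genes, and in females 20 and 11, beside 25.6%.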

How the data were processed

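RNA was sequenced from 18 libraries of w1118 flies, 2 in each of 9 conditions. Adults are 24 h old in the labels and methods, and the study's results text gives 2 h for the whole adults. Reads were trimmed by the authors with cutadapt (1.15) and aligned to release r6.15 of the fly genome with TopHat2 (2.1.1), and the deposited table gives unnormalized read counts per gene for 17825 genes. The counting tool is not given in the sources used here. The length given for every gene equals its whole span. Columns were matched to samples by name, and 0 were left over. Symbols came from an Ensembl annotation (BDGP6.54), in which 17742 identifiers were found, and coordinates from the count table.

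The members and the gene lists were chosen with earlier results of these data known. The main test was the quasi-likelihood test of edgeR 4.0.16 under R 4.3.3 (TMM, filterByExpr with a minimum count of 10, glmQLFit and glmQLFTest), with 6 libraries in the fit of stages and 12 in that of parts. Standard errors were obtained as the absolute log2 fold change over the root of its F statistic. Called genes with the 5 largest fold changes in either direction of a comparison are given with standard error and adjusted p. From the other lists the called genes with the largest rise and fall from larvae to whole adults are named. Gene counts without molecular identifiers are not independent molecules, so bounds and counting intervals (95%) cover counting error only. The procedure was tested on simulated data with the spread of all genes at a given level. Between larval replicates 66.7% of the proteases were over 2-fold apart, against 12.3% of other genes. The rates given next therefore need not hold for the proteases. Of 100 genes given a log2 change of 2, 86 were called with the right sign in whole adults over larvae. In male bodies over male heads 50 of 100 were, so a gene not called in the parts may still differ.

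Replicate numbers come from the labels, which do not say what libraries of one number share. Same-numbered libraries deviated together in the parts (15 pairs of groups, correlations of 0.279 to 0.672) and not in the stages (3 pairs, -0.047 to 0.123). The main fits held the group only, so their p-values are unpaired. The numbers paired libraries where levels of a part were given as a percent of another part, and in the replicate block below. Alternatives were DESeq2 1.42.0 size factors and Wald test, no filter, at least 10 counts in every library, a replicate block, only the groups compared, no minimum fold and each library left out. Summed CPM scaled by TMM or size factors were added after the data were seen.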

Additional observations from a re-analysis of the deposited data

Results flagged for a closer look

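The difference between bodies and heads was larger in females than in males for zetaTry, by 5.51 on the log2 scale (adjusted p = 0.0348 for the interaction in edgeR), 1 of the 27 proteases with an adjusted p under 0.05 for this difference, beside 35.2% of all 12597 genes tested. Female heads had 0 counts in both libraries and male heads 6 and 4, while bodies had 872 and 732 counts in females and 650 and 1059 in males, so the fitted value depends on the prior count and is no bound.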

How the results depend on the processing

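The number of proteases called lay within 1.5 times that reported under each alternative for whole adults over larvae (20 to 24 called) and larvae over embryos (17 to 23). With at least 10 counts in every library only 12 proteases were tested in the parts, and all 12 were called in male and in female bodies over heads, over testes and over ovaries. In the same setting 0 were called in female over male bodies. There the reported result was 1 higher (Jon66Cii) and 0 lower. It was 1 higher and 2 lower (3 in all) with DESeq2 size factors and 0 higher and 2 lower (kappaTry and Jon74E) with DESeq2's Wald test, and 2 were higher (Jon66Ci and Jon66Cii) with no filter, with only the groups compared and with the replicate block. The block changed no other count in the parts by over 1.5 times. In the stages, where libraries share only a number, the block left 24 called in whole adults over larvae and gave 20 higher and 2 lower (lambdaTry and kappaTry) in larvae over embryos. Leaving out each library in turn gave 22 to 24 called (whole adults over larvae), 17 to 23 (larvae over embryos), 25 to 27 (male bodies over heads), 26 (female bodies over heads), 1 to 2 (female over male bodies, all lower and without Jon66Cii when female body replicate 2 or male body replicate 1 was left out), 23 to 25 (over testes) and 24 to 27 (over ovaries), where a lone library is assumed to vary like the other groups. Of the alternatives for single named fold changes 331 kept their call, 4 lost it and 0 reversed. That tally includes the setting without a minimum fold, in which these calls could not change, and leaves out genes that a setting did not test. DESeq2's size factors shift all genes against TMM by -0.56 to 0.20 log2 units, depending on the comparison. With 2 libraries in each condition, fold changes of genes with few counts in heads and gonads are known only as bounds or wide intervals.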
